A study of Mus musculus with 8 samples.

Results

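The genes described here are 41 genes of the lysosome, fixed by name: 9 cathepsins and legumain, 8 glycosidases, 3 sulfatases, 4 genes of lipid and sphingolipid breakdown, Tpp1 and Grn, 7 membrane and cholesterol-export genes, Tfeb, and 6 genes of the proton pump. They were chosen by symbol from a table of 52030 named genes. All 41 were present on 1 row each, and all 41 had a mean of at least 1 FPKM (fragments counted per length of transcript and per depth of library) and were among the 11268 genes tested.

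Lysosomes are acidic compartments in which hydrolases degrade proteins, glycans, lipids and glycosaminoglycans delivered by endocytosis, phagocytosis and autophagy. A vacuolar proton pump acidifies the lumen, membrane proteins such as LAMP1 and LAMP2 line it, and the transcription factor TFEB activates many of the genes through E-box elements in their promoters. In liver, hepatocytes and macrophages both carry abundant lysosomes, and cathepsin S, cathepsin K and legumain are well-known products of macrophages.

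Bulk RNA sequencing was done on liver of wild-type (WT) mice with steatohepatitis, a fatty and inflamed liver, caused by CDAHFD, a high-fat diet that lacks choline and has a defined amino acid content. Group ctr_hEV (4 libraries) was injected intravenously with vesicles from the circulation of human volunteers after a sham procedure, and group RIC_hEV (4 libraries) with vesicles from volunteers after remote limb ischemic conditioning, in which blood flow to a limb is interrupted for short periods. Both groups share the diet and the human vesicles, and no group without either is analysed here. The title of the series names vesicles as the route by which conditioning of a limb reaches the liver, and the question here is how liver RNA differs between both kinds of vesicle. No source used here gives age, sex, dose, time or the number of volunteers or mice behind a library, so p-values measure the spread between these 8 libraries.

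FPKM steps of low genes put the depth at 19400000 to 28900000 fragments per library, as an estimate. The hepatocyte markers were abundant, with Alb (albumin) at 16909 to 28051 FPKM. On the leading principal component of all tested genes (44.4% of the variance), ctr_hEV 1 (-36.1) and ctr_hEV 3 (-23.3) stood apart from the other 6 libraries, which lay between -2.36 and 16.3. For each gene described by library under the naming rule, the change is also given without these 2 libraries. Where they are the higher controls, leaving them out moves the change upward by construction. It also leaves fewer controls and less power, so a p-value lost in this way is no check on a gene. The median log2 change of all tested genes was -0.11, so changes are given as fitted and, where stated, relative to that median, and the SE and p belong to the change as fitted.

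The E-box core CACGTG, which reads the same on both strands, was searched in RefSeq promoter windows (GRCm38.p6) from 250 bases before to 50 after a start. It is the centre of the CLEAR element that TFEB binds. The motif was chosen because TFEB activates many lysosomal genes through it, so an excess here is no independent finding. Of the 41 genes, 33 had a window (not Asah1, Atp6v0d2, Atp6v1b2, Atp6v1h, Ctsb, Ctsh, Galns or Npc1), and 12 of these 33 (36.4%) held the core in at least 1 window, against 8.09% of all 27025 genes with a window. The longer palindrome TCACGTGA, which contains the core, was present in 6 of 33 (18.2%) against 1.12% of all genes. The sites with the longer palindrome are shown with 10 bases on each side, palindrome in capitals, because this element was more frequent here than among all promoters, although most of the 33 genes do not hold it; positions are those of the core relative to the start.
Atp6v0d1 at -3 (chr8:105566051-105566078, minus strand): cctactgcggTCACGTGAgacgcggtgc
Atp6v1a at -131 (chr16:44139374-44139401, minus strand): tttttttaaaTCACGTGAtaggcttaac
Ctsa at -12 (chr2:164833750-164833777, plus strand): gagcaaactgTCACGTGAtgcagatgct
Ctsa at 5 (chr2:164833767-164833794, plus strand): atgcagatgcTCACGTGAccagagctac
Ctsd at -98 (chr7:142387909-142387936, minus strand): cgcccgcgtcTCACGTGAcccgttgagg
Gla at -227 (chrX:134601216-134601243, minus strand): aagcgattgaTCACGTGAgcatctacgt
Gla at -194 (chrX:134601183-134601210, minus strand): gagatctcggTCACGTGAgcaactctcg
Mcoln1 at -45 (chr8:3500463-3500490, plus strand): ggcgccccgcTCACGTGAccgcggcgca
Ctsa and Gla each held the palindrome at 2 positions, and Ctsd and Mcoln1 held a further core without the flanking bases.

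Lamp1 held the core 4 times, at -61, -45, -28 and -15 relative to its start, and never the longer palindrome. The 250 bases before its start are shown, cores in capitals, because no other of the 33 genes held as many.
Lamp1 promoter (chr8:13158911-13159160, plus strand): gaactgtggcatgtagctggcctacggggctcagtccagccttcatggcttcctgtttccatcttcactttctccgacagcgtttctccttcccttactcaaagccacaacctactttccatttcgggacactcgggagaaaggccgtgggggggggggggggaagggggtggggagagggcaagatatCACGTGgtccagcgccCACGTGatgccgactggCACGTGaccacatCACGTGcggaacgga
Ctsl, Gaa, Glb1, Lgmn and Sgsh each held 1 core without the flanking bases. The median log2 change after RIC vesicles was -0.20 over the 12 genes with a core and -0.15 over the 21 without, a difference of description only, and of the genes with an unadjusted p under 0.05 that had a window, 1 had a core and 2 had none.

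None of the 41 genes changed between the groups at an adjusted p under 0.05 (limma, Benjamini-Hochberg over 11268 genes), where 4 of all tested genes (0.0355%) passed. A count of 6 of 41 (14.6%) had an unadjusted p under 0.05, against 14% of all tested genes. All 6 lay lower in RIC_hEV, the direction of 11.4% of all tested genes, and 2.64% of all tested genes passed as higher. This share is near the background and is no result about lysosomal genes. The groups did not overlap in 3 of 41 (7.32%), all lower in RIC_hEV, against 4.56% of all tested genes lower and 1.31% higher.

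As fitted, 39 of 41 genes lay lower in RIC_hEV (95.1%), against 73% of all tested genes. Their median log2 change was -0.16, against -0.11 for all tested genes, so the median relative change was -0.05, and relative to the median gene 26 were lower and 15 higher. The change was under 0.5 on the log2 scale in 40 of 41 genes, with Ctsk as the exception. The 95% interval reached below -0.5 in 15 of the 41, and in those genes a change of that size lies inside the interval. After centring each library on its median, the 6 lower genes at an unadjusted p under 0.05 became 0 lower (3.88% of all tested genes) and 2 higher (Gaa and Atp6v0d1, 8.2% of all tested genes).

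**Figure D1:**
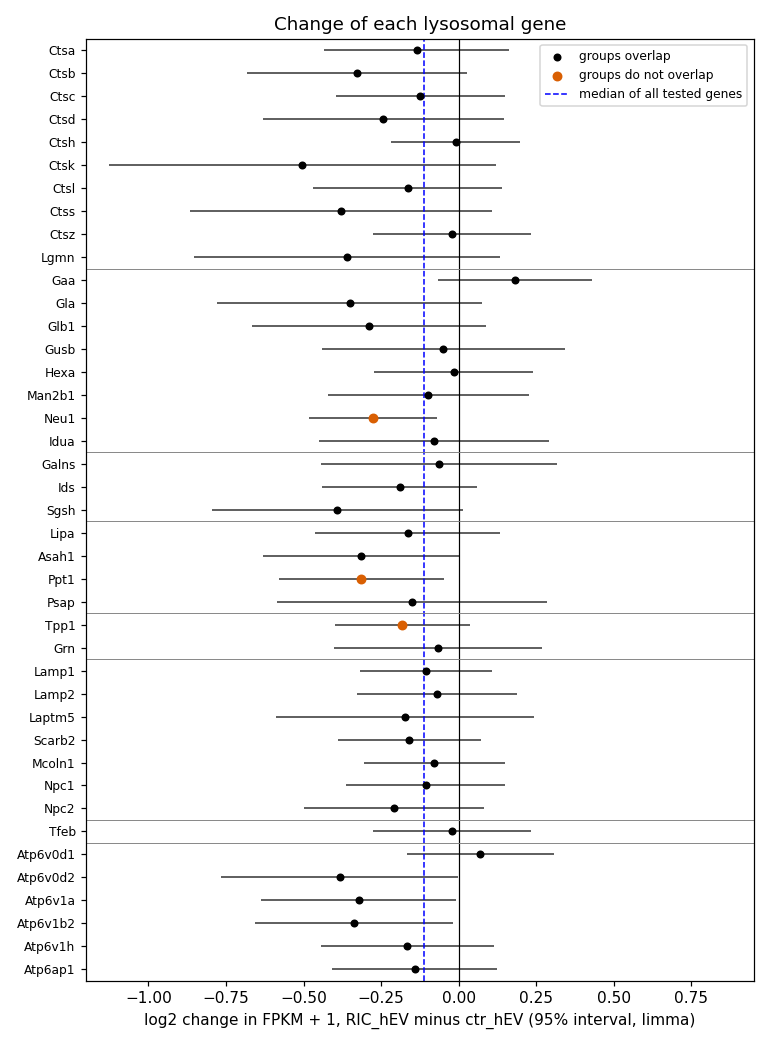
Log2 change in FPKM + 1 (RIC_hEV minus ctr_hEV) of the 41 lysosomal genes with the 95% interval from limma, grouped by role with grey lines. The dashed line is the median of all tested genes (-0.11), and 39 points lie below 0 while orange marks the 3 genes whose groups do not overlap.

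Single libraries set the size of these counts. The 6 genes at an unadjusted p under 0.05 became 1 without ctr_hEV 1 (8.37% of all tested genes) and 1 without ctr_hEV 3 (6.89%). They became 2 without RIC_hEV 1 (7.17%), 2 without RIC_hEV 2 (9.88%), 4 without RIC_hEV 3 (10.9%), 7 without RIC_hEV 4 (13.7%), 8 without ctr_hEV 2 (11%) and 13 without ctr_hEV 4 (29.1%). The 3 genes without overlap became 9 without ctr_hEV 4 and 6 without RIC_hEV 4, where all tested genes lower without overlap also went from 4.56% to 21.6% and 10.9%. Without both ctr_hEV 1 and ctr_hEV 3, which leaves fewer controls and less power, 0 of 41 had an unadjusted p under 0.05 in limma. None had an adjusted one, and 5.21% of all tested genes had an unadjusted one. In that setting the median log2 change of the 41 genes was -0.01, and 23 lay lower and 18 higher.

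In most of the 41 genes, as in most tested genes, the range among the control livers exceeded the difference between the groups. Their summed level was 4171, 2868, 3575 and 2701 FPKM in ctr_hEV 1 to 4 and 2716, 2769, 2824 and 3206 FPKM in RIC_hEV 1 to 4. The sum was highest in ctr_hEV 1 and ctr_hEV 3, next in RIC_hEV 4, and lowest in ctr_hEV 4, so the groups overlapped at the lower end. In 40 of 41 genes the range among the 4 ctr_hEV libraries was larger than the difference between group means, as it was in 94.0% of all tested genes. The exception was Neu1. A share this near that of all tested genes is no result about lysosomal genes.

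Library ctr_hEV 1 held the highest level of 32 of 41 genes (78.0%), against 44.7% of all tested genes. Both ctr_hEV 1 and ctr_hEV 3 lay above ctr_hEV 2 and ctr_hEV 4 in 34 of 41, against 46.0% of all tested genes. These 2 libraries were picked for their place on the leading component, which the same genes help to set. The median coefficient of variation of the 41 genes was 17% within ctr_hEV and 11.1% within RIC_hEV, beside 16.3% and 13.2% for all tested genes. The heat map of deviations shows ctr_hEV 1 and ctr_hEV 3 as the columns most above the gene means, in 39 and 35 of 41 genes. Of all tested genes, 76.0% and 69.1% were above their own mean in these 2 libraries. Library RIC_hEV 4 was above the gene mean in 25 of 41 genes, against 50.3% of all tested genes.

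**Figure D2:**
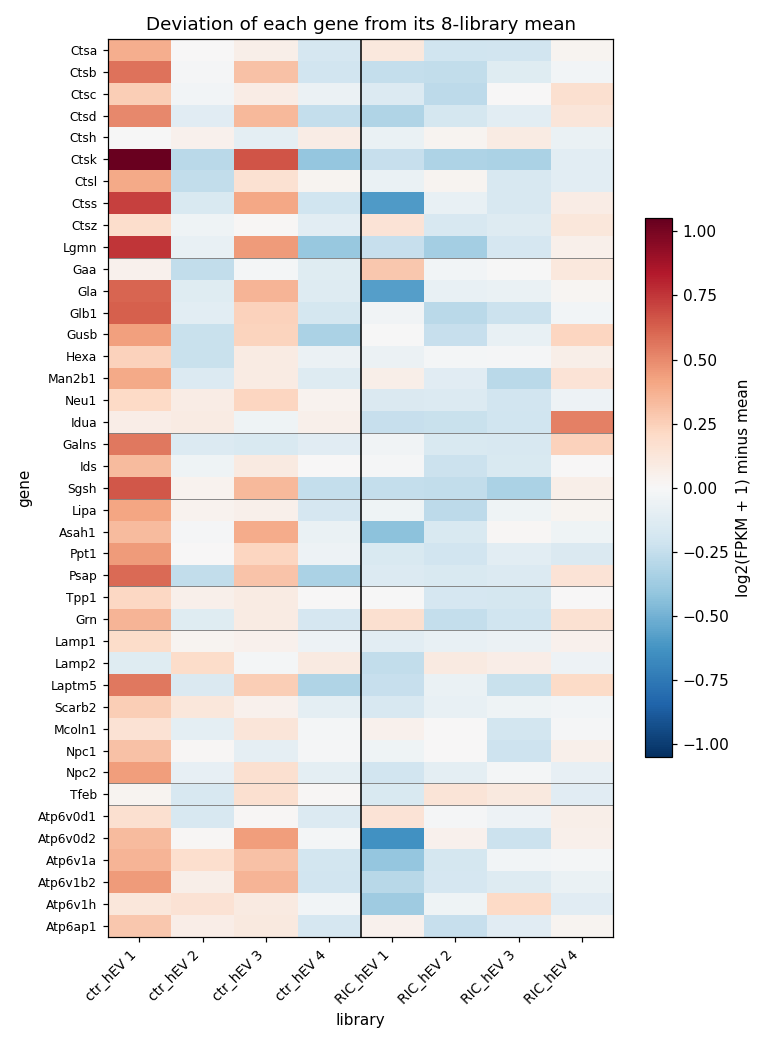
Deviation of log2(FPKM + 1) from each gene's mean over 8 libraries (colour) for the 41 lysosomal genes (rows, grey lines between roles) in each library (columns, black line between groups). Library ctr_hEV 1 is the highest of 8 in 32 genes, while Lamp2 and Ctsh do not share that pattern.

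Markers of macrophages moved with the same libraries, and so did stellate cell and cholangiocyte markers, given further below. The summed level of 12 macrophage markers was 832 to 1564 FPKM in ctr_hEV and 693 to 956 in RIC_hEV, highest in ctr_hEV 1 and then ctr_hEV 3, as for the lysosomal genes, and all 12 were detected in every library. Of these 12, 3 had an unadjusted p under 0.05, where 11.4% of all tested genes passed as lower and 2.64% as higher. All 12 lay lower in RIC_hEV as fitted, against 73% of all tested genes, and none passed the adjusted threshold with all 8 libraries. The median log2 change of the 12 was -0.24, against -0.11 for all tested genes. The most abundant were Lyz2 (202 to 664 FPKM) and C1qb (131 to 232 FPKM); Lyz2 (lysozyme 2) measured 664, 321, 473 and 341 FPKM across ctr_hEV 1 to 4, against 202, 395, 323 and 345 FPKM across RIC_hEV 1 to 4. The 8 markers of lipid-associated macrophages summed to 164 to 462 FPKM in ctr_hEV and 122 to 194 in RIC_hEV, led by Gpnmb (33.6 to 122 FPKM) and Spp1 (16.9 to 129 FPKM), with 3 of 8 lower at an unadjusted p under 0.05 and a median log2 change of -0.48. The 6 Kupffer cell markers summed to 331 to 519 FPKM in ctr_hEV and 316 to 435 in RIC_hEV, led by Cd5l (186 to 379 FPKM) and Clec4f (39.1 to 72.5 FPKM), with 0 of 6 at an unadjusted limma p under 0.05 and a median of 0.02.

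The other cell markers gave these values. Their counts at an unadjusted p under 0.05 stand against 11.4% of all tested genes lower and 2.64% higher. Hepatocyte markers (11) summed to 37248 to 49908 FPKM in ctr_hEV and 41520.4 to 47459 in RIC_hEV, lowest in ctr_hEV 1, and 4 of 11 were higher in RIC_hEV at an unadjusted p under 0.05. All 5 tested of 11 neutrophil markers lay lower in RIC_hEV at an unadjusted p under 0.05. The 11 markers summed to 16.2 to 79.2 FPKM in ctr_hEV and 9.51 to 18.9 in RIC_hEV. Ly6g, Mpo, Elane and Camp were listed at 0 in at least 1 library. Members of this list could pass the filter through their ctr_hEV values alone. For that reason the neutrophil count cannot be set against the share of all tested genes. Stellate cell markers (10) summed to 129 to 292 FPKM in ctr_hEV and 119 to 159.7 in RIC_hEV, highest in ctr_hEV 1 and then ctr_hEV 3. All 10 lay lower in RIC_hEV as fitted (73% of all tested genes), with a median log2 change of -0.36. Endothelial markers (8) summed to 87.8 to 100.2 FPKM in ctr_hEV and 81.8 to 111 in RIC_hEV. Cholangiocyte markers (4) summed to 2.88 to 16.9 FPKM in ctr_hEV and 2.88 to 3.23 in RIC_hEV, also highest in ctr_hEV 1 and then ctr_hEV 3. Among them Krt19 alone was lower at an unadjusted p under 0.05, and these low genes could also pass the filter through their ctr_hEV values. The most abundant of these lists were Alb (16909 to 28051 FPKM) and Apoa1 (4942 to 6568 FPKM), S100a9 (2.62 to 35.7 FPKM) and S100a8 (2.94 to 21.7 FPKM), Dcn (51.1 to 84.3 FPKM) and Col3a1 (13.8 to 71.8 FPKM), Clec4g (17.6 to 27.3 FPKM) and Lyve1 (12.6 to 29.8 FPKM) and Epcam (0.886 to 9.1 FPKM) and Sox9 (0.917 to 2.86 FPKM). Of 8 B and T cell markers Jchain alone was tested and lay higher in RIC_hEV at an unadjusted p under 0.05, at 1.31 ± 0.394 FPKM in ctr_hEV and 3.03 ± 0.596 FPKM in RIC_hEV (SD, n = 4), a log2 change of 0.81 (SE 0.15, limma adjusted p = 0.235). No marker passed the adjusted threshold with all 8 libraries. Without ctr_hEV 4, 5 markers passed in limma, where 178 of all tested genes (1.58%) passed, against 4 (0.0355%) with all 8 libraries. Lower in RIC_hEV were Cd14 (limma adjusted p = 0.0286), S100a8 (0.0259), S100a9 (0.0434) and Ngp (0.0437), and Tat (0.0434) was higher. On the leading component ctr_hEV 4 (16.3) lay with the RIC_hEV libraries (4.75 to 16.3). Leaving out the control most like RIC_hEV widens differences by construction, so these calls are no added support. S100a8, S100a9 and Ngp also carry the filter limit of the neutrophil list. In bulk tissue, fewer cells of a type and less RNA per cell cannot be told apart, and the part of these cell markers in the levels of lysosomal genes was not tested.

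**Figure D3:**
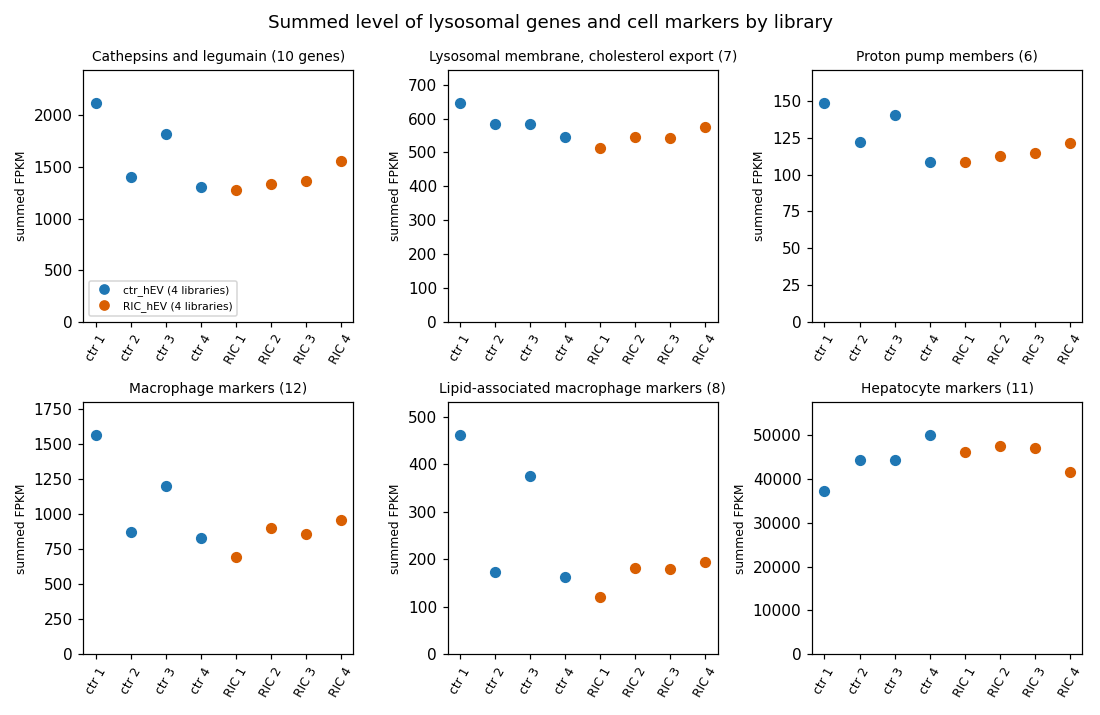
Summed FPKM per library (points, blue ctr_hEV, orange RIC_hEV; each axis starts at 0) for 3 groups of lysosomal genes and 3 lists of cell markers. The cathepsin sum and both macrophage sums are highest in ctr_hEV 1 and ctr_hEV 3, and the hepatocyte sum is lowest in ctr_hEV 1.

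Levels of the 41 genes spanned from 1.40 FPKM (Tfeb) to 559 FPKM (Psap), with a median of 22.1 FPKM against 4.83 FPKM for all tested genes. Psap, Ctsd, Lamp1, Ctsb and Ctss held 62.3% of the summed FPKM of the 41 genes. FPKM is scaled by transcript length, so these levels can be set beside each other as far as the authors' transcript lengths, which no source used here states, are right.

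**Figure D4:**
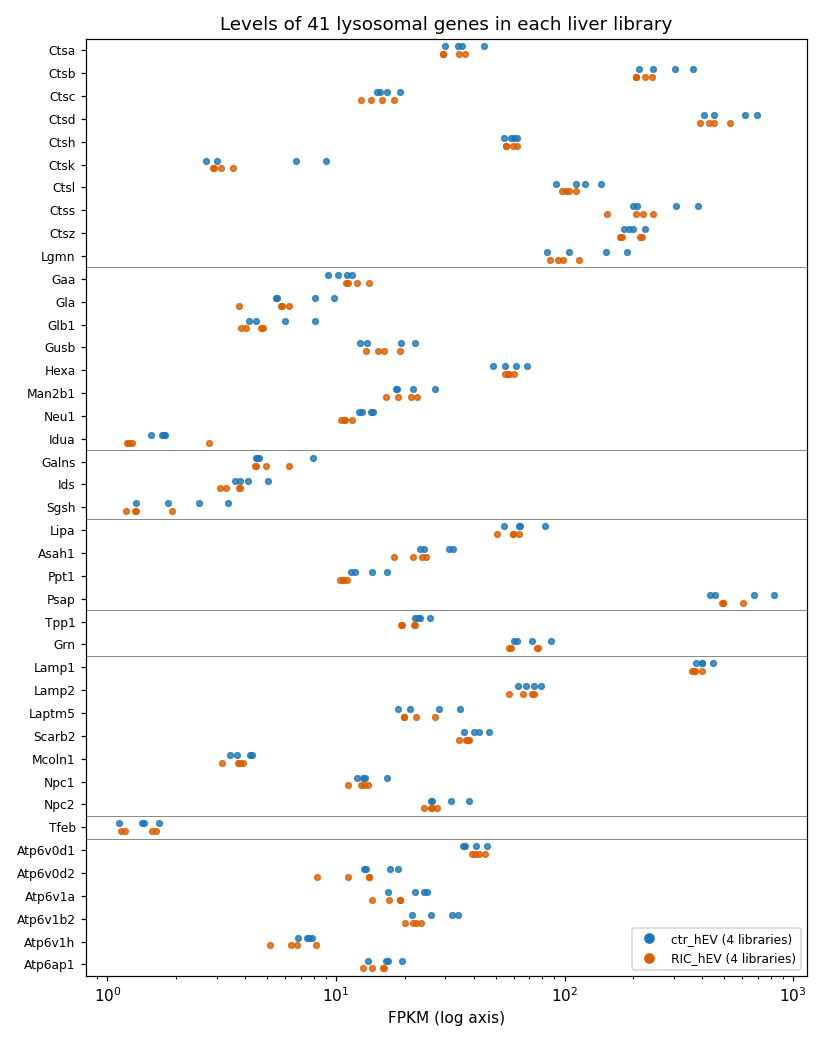
FPKM (log axis) of each lysosomal gene in each of the 8 liver libraries (points, blue ctr_hEV above, orange RIC_hEV below; grey lines separate roles). Levels run from about 1 FPKM for Tfeb and Idua to over 400 FPKM for Psap, and Neu1, Ppt1 and Tpp1 are the genes with no overlap between colours.

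Among the proteases, none of the 10 cathepsin and legumain genes had an unadjusted p under 0.05. All 10 lay lower in RIC_hEV as fitted, against 73% of all tested genes, and 8 lower relative to the median gene. Their summed level was 1309.5 to 2125 FPKM in ctr_hEV and 1275 to 1558 in RIC_hEV. Ctsb, the most widely expressed cysteine cathepsin (chr14:63122462-63145923, plus strand, mm10), measured 364, 243, 303 and 212 FPKM across ctr_hEV 1 to 4, against 206, 205, 225 and 241 FPKM across RIC_hEV 1 to 4. The highest values were those of ctr_hEV 1 and ctr_hEV 3, while ctr_hEV 4 lay among the RIC_hEV libraries. The group levels were 280.4 ± 67 FPKM in ctr_hEV and 219 ± 17 FPKM in RIC_hEV (SD, n = 4 per group), a log2 change of -0.33 (SE 0.16, limma adjusted p = 0.37), or -0.22 relative to the median gene. That change was -0.19 without ctr_hEV 1 and -0.06 without both ctr_hEV 1 and ctr_hEV 3. Its exons share 12.8% of their length with Fdft1 on the opposite strand, and no source used here states whether reads were counted by strand.

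Ctss, an elastin-cleaving cysteine protease that also processes the invariant chain of MHC class II (chr3:95526786-95556403, plus strand), measured 382, 206, 307 and 200.1 FPKM across ctr_hEV 1 to 4, against 153, 219, 206 and 245 FPKM across RIC_hEV 1 to 4. It spanned 2.50-fold between the lowest library, RIC_hEV 1, and the highest, ctr_hEV 1, and the groups overlapped. The difference was a log2 change of -0.38 (SE 0.22, limma adjusted p = 0.417). It was -0.20 without ctr_hEV 1, -0.24 without RIC_hEV 1 and -0.00366 without both ctr_hEV 1 and ctr_hEV 3. Ctsk, a collagen-degrading cathepsin best known from osteoclasts (chr3:95499256-95509362, plus strand), measured 9.02, 3.02, 6.71 and 2.7 FPKM across ctr_hEV 1 to 4, against 3.12, 2.91, 2.89 and 3.54 FPKM across RIC_hEV 1 to 4. It had the widest spread of the 41 genes, 3.35-fold, and this lay inside the control group: ctr_hEV 1 and ctr_hEV 3 were above all other libraries, and ctr_hEV 4 was the lowest of all. The log2 change of -0.50 (SE 0.28, limma adjusted p = 0.41) was -0.24 without ctr_hEV 1 and turned to 0.09 without both ctr_hEV 1 and ctr_hEV 3.

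Ctsd, the main aspartic protease of lysosomes (chr7:142375911-142388038, minus strand), measured 692, 449, 618 and 409 FPKM across ctr_hEV 1 to 4, against 391, 428, 449.8 and 531 FPKM across RIC_hEV 1 to 4. Its groups overlapped, and the log2 change of -0.24 (SE 0.18, limma adjusted p = 0.49) was -0.11 without ctr_hEV 1 and -0.37 without ctr_hEV 4, and turned to 0.06 without both ctr_hEV 1 and ctr_hEV 3. A gene model on the same strand, Gm49369, covers 34.4% of the exon length of Ctsd, so its level is uncertain. Legumain (Lgmn), an asparaginyl endopeptidase that activates cathepsins, ranged from 84 to 187 FPKM, highest in ctr_hEV 1 and ctr_hEV 3. Ctsl (91.4 to 145 FPKM), a cysteine endopeptidase, shares 26.8% of its exon length with the gene models Gm47123 and Gm49230. Ctsz, a carboxypeptidase, ranged from 175 to 224 FPKM. Ctsh, an aminopeptidase, had the narrowest spread of the 41 genes, at 54.4 to 62.1 FPKM. Ctsa, the protective protein that stabilises neuraminidase and beta-galactosidase, ranged from 29.3 to 44.5 FPKM, and Ctsc, which activates granule serine proteases, from 12.9 to 19.1 FPKM. Exons of Neurl2 and Pltp on the opposite strand share 17.4% of the exon length of Ctsa.

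Of the 8 glycosidases, Neu1 alone had an unadjusted p under 0.05 (14% of all tested genes). Neu1, the lysosomal sialidase that removes sialic acid from glycoproteins (chr17:34931253-34935953, plus strand), measured 14.2, 13, 14.5 and 12.6 FPKM across ctr_hEV 1 to 4, against 10.9, 11, 10.5 and 11.7 FPKM across RIC_hEV 1 to 4. All 4 RIC_hEV libraries lay below every ctr_hEV library. The group levels were 13.6 ± 0.938 FPKM in ctr_hEV and 11 ± 0.519 FPKM in RIC_hEV (SD, n = 4 per group), a log2 change of -0.28 (SE 0.09, limma adjusted p = 0.352), with a 95% interval of -0.48 to -0.07 for the fitted change, or -0.17 relative to the median gene. Without both ctr_hEV 1 and ctr_hEV 3 the fitted change was -0.20. It had the smallest p of the 41 genes. The groups of Neu1, like those of Ppt1, also did not overlap after quantile normalization and after median centring. In these settings 2.43% and 2% of all tested genes were lower without overlap.

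Gla, the alpha-galactosidase that is deficient in Fabry disease (chrX:134588149-134601125, minus strand), measured 9.84, 5.5, 8.09 and 5.47 FPKM across ctr_hEV 1 to 4, against 3.75, 5.73, 5.77 and 6.2 FPKM across RIC_hEV 1 to 4. The highest libraries were ctr_hEV 1 and ctr_hEV 3 and the lowest RIC_hEV 1, with the other 5 close together. It differed by a log2 change of -0.35 (SE 0.19, limma adjusted p = 0.404). It was -0.21 without ctr_hEV 1, -0.22 without RIC_hEV 1 and -0.04 without both ctr_hEV 1 and ctr_hEV 3. Gaa, the acid glucosidase that degrades lysosomal glycogen, went the other way: its FPKM was 10.6 ± 1.07 FPKM in ctr_hEV and 12.2 ± 1.35 FPKM in RIC_hEV (SD, n = 4 per group), a log2 change of 0.18 (SE 0.11, limma adjusted p = 0.435). Gaa was named after its values were seen. Its groups overlapped as deposited and did not overlap after quantile normalization or median centring, both higher in RIC_hEV.

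The other glycosidases overlapped between groups. Glb1 (beta-galactosidase) ranged from 3.82 to 8.07 FPKM, Gusb (beta-glucuronidase) from 12.7 to 22.1 FPKM, and Man2b1 (alpha-mannosidase) from 16.6 to 27.2 FPKM, each with ctr_hEV 1 as the highest library. Hexa, the alpha chain of hexosaminidase, ranged from 48.7 to 68.2 FPKM and differed by -0.02 on the log2 scale. It shares 12.8% of its exon length with Tmem202 on the opposite strand. Idua, which removes iduronic acid from glycosaminoglycans, measured 1.77, 1.79, 1.56 and 1.73 FPKM across ctr_hEV 1 to 4, against 1.22, 1.24, 1.28 and 2.79 FPKM across RIC_hEV 1 to 4. Library RIC_hEV 4 was highest of all and the other 3 RIC_hEV libraries were lowest, so the mean difference of -0.08 on the log2 scale joins opposite positions. Exons of Dgkq and Slc26a1 on the opposite strand share 6.3% of the exon length of Idua.

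None of the 3 sulfatases had an unadjusted p under 0.05. Sgsh, the heparan N-sulfatase (chr11:119343425-119355536, minus strand), measured 3.38, 1.85, 2.52 and 1.34 FPKM across ctr_hEV 1 to 4, against 1.34, 1.32, 1.2 and 1.91 FPKM across RIC_hEV 1 to 4. Libraries ctr_hEV 1 and ctr_hEV 3 were above all others, and the other 6 overlapped. Between groups it showed a log2 change of -0.39 (SE 0.18, limma adjusted p = 0.364), which was -0.24 without ctr_hEV 1 and -0.09 without both ctr_hEV 1 and ctr_hEV 3. Exons of Card14 on the opposite strand cover 21.6% of the exon length of Sgsh. Ids (iduronate sulfatase) ranged from 3.1 to 5.01 FPKM, and Galns (galactosamine-6-sulfatase) from 4.41 to 7.93 FPKM with ctr_hEV 1 highest and RIC_hEV 4 next.

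In lipid and sphingolipid breakdown, 2 of 4 genes had an unadjusted p under 0.05, against 14% of all tested genes. After median centring 0 of 4 had one, and likewise without both ctr_hEV 1 and ctr_hEV 3, where fewer controls also lower the power. Ppt1, the palmitoyl thioesterase that removes fatty acids from proteins (chr4:122836242-122859175, plus strand), measured 16.8, 12.1, 14.3 and 11.6 FPKM across ctr_hEV 1 to 4, against 10.7, 10.4, 11.1 and 10.7 FPKM across RIC_hEV 1 to 4. Every RIC_hEV library lay below every ctr_hEV library. The group levels were 13.7 ± 2.35 FPKM in ctr_hEV and 10.7 ± 0.309 FPKM in RIC_hEV (SD, n = 4 per group), a log2 change of -0.31 (SE 0.12, limma adjusted p = 0.354), with a 95% interval of -0.58 to -0.05 for the fitted change, or -0.20 relative to the median gene. It was -0.14 without both ctr_hEV 1 and ctr_hEV 3. Exons of Cap1 on the opposite strand share 3.51% of its exon length.

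Asah1, the acid ceramidase that splits ceramide into sphingosine and fatty acid (chr8:41340197-41374773, minus strand), measured 31.1, 24.3, 32.4 and 23.3 FPKM across ctr_hEV 1 to 4, against 17.9, 21.8, 24.7 and 23.7 FPKM across RIC_hEV 1 to 4. Libraries ctr_hEV 1 and ctr_hEV 3 were above all others, and RIC_hEV 3 exceeded ctr_hEV 2 and ctr_hEV 4. The fit gave a log2 change of -0.32 (SE 0.14, limma adjusted p = 0.357), which was -0.11 without both ctr_hEV 1 and ctr_hEV 3. Psap, the precursor of the saposins that present sphingolipids to their hydrolases (chr10:60277627-60302597, plus strand), was the most abundant of the 41 transcripts, measuring 825, 456, 672 and 434 FPKM across ctr_hEV 1 to 4, against 495, 489, 495 and 602 FPKM across RIC_hEV 1 to 4. The 4 RIC_hEV libraries lay between both pairs of ctr_hEV libraries, above ctr_hEV 2 and ctr_hEV 4 and below ctr_hEV 1 and ctr_hEV 3. The log2 change of -0.15 (SE 0.20, limma adjusted p = 0.698) turned to 0.02 without ctr_hEV 1 and to 0.22 without both ctr_hEV 1 and ctr_hEV 3. It was -0.26 without ctr_hEV 2, -0.08 without ctr_hEV 3 and -0.29 without ctr_hEV 4. Lipa, the acid lipase that hydrolyses cholesteryl esters and triglycerides of lipoproteins, ranged from 50.8 to 82.4 FPKM, with overlapping groups.

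Tpp1, a tripeptidyl peptidase (chr7:105744811-105752235, minus strand), measured 25.7, 22.9, 23.4 and 22.1 FPKM across ctr_hEV 1 to 4, against 21.9, 19.4, 19.2 and 22.1 FPKM across RIC_hEV 1 to 4. The groups did not overlap, but the highest RIC_hEV library and the lowest ctr_hEV library round to the same value. The groups differed by a log2 change of -0.18 (SE 0.10, limma adjusted p = 0.399), and by -0.12 without both ctr_hEV 1 and ctr_hEV 3. After quantile normalization, median centring or rescaling to equal totals the groups overlapped. Grn (progranulin), a secreted protein that is cleaved to granulins in lysosomes, ranged from 56.8 to 87 FPKM.

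None of the 7 membrane and cholesterol-export genes had an unadjusted p under 0.05. Lamp1, an abundant glycoprotein of the limiting membrane (chr8:13159161-13175338, plus strand), measured 444, 398, 401 and 374 FPKM across ctr_hEV 1 to 4, against 359.7, 369, 372 and 401 FPKM across RIC_hEV 1 to 4. The groups overlapped through RIC_hEV 4, and the difference was a log2 change of -0.10 (SE 0.10, limma adjusted p = 0.577), which was -0.06 without ctr_hEV 1 and -0.04 without both ctr_hEV 1 and ctr_hEV 3, and turned to 0.03 after median centring. Lamp1 shares 9.31% of its exon length with Grtp1 on the opposite strand. Lamp2, the relative of Lamp1 that is also the receptor of chaperone-mediated autophagy, was lowest in RIC_hEV 1 and ctr_hEV 1 and ranged from 57.1 to 78.6 FPKM. Laptm5, a lysosomal membrane protein of blood cells, ranged from 18.7 to 35 FPKM, highest in ctr_hEV 1 and ctr_hEV 3. Scarb2, which carries glucocerebrosidase to lysosomes, ranged from 34.5 to 46.9 FPKM, and the calcium channel Mcoln1 from 3.18 to 4.3 FPKM. Npc1 and Npc2, which pass cholesterol out of the lysosome, ranged from 11.3 to 16.7 FPKM and 24.2 to 38.3 FPKM, with log2 changes of -0.11 and -0.21.

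Tfeb itself (chr17:47737030-47792419, plus strand) was low, measuring 1.44, 1.12, 1.68 and 1.42 FPKM across ctr_hEV 1 to 4, against 1.14, 1.62, 1.57 and 1.2 FPKM across RIC_hEV 1 to 4. The groups covered nearly the same range, with ctr_hEV 3 and RIC_hEV 2 as the highest of each. The difference was a log2 change of -0.02 (SE 0.12, limma adjusted p = 0.936), with a 95% interval of -0.28 to 0.23, and its sign turned after quantile normalization (0.10), after median centring (0.12) and without both ctr_hEV 1 and ctr_hEV 3 (0.07). Without 1 library it lay between -0.08 (ctr_hEV 2) and 0.03 (ctr_hEV 3). TFEB acts through its movement to the nucleus, which transcript levels do not measure.

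Of the 6 proton pump genes, 3 had an unadjusted p under 0.05, all lower in RIC_hEV, against 11.4% of all tested genes. None of these 3 had one in limma after median centring, or without both ctr_hEV 1 and ctr_hEV 3, where fewer controls also lower the power. Atp6v1b2, the B subunit of the cytosolic V1 sector (chr8:69088646-69113711, plus strand), measured 34.1, 25.9, 32.1 and 21.4 FPKM across ctr_hEV 1 to 4, against 20, 21.8, 22.4 and 23.6 FPKM across RIC_hEV 1 to 4. Libraries ctr_hEV 1, 2 and 3 were above all RIC_hEV libraries, and ctr_hEV 4 was among them. The group levels were 28.4 ± 5.81 FPKM in ctr_hEV and 22 ± 1.49 FPKM in RIC_hEV (SD, n = 4 per group), a log2 change of -0.34 (SE 0.14, limma adjusted p = 0.354), which was -0.10 without both ctr_hEV 1 and ctr_hEV 3. Atp6v1a, the catalytic A subunit (chr16:44085402-44139705, minus strand), measured 25.1, 22.1, 24.2 and 16.9 FPKM across ctr_hEV 1 to 4, against 14.4, 17, 19 and 19.1 FPKM across RIC_hEV 1 to 4. It had the same order of controls, with ctr_hEV 4 inside the RIC_hEV range. The model gave a log2 change of -0.32 (SE 0.14, limma adjusted p = 0.354), and -0.15 without both ctr_hEV 1 and ctr_hEV 3.

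The d subunit joins the membrane sector to the stalk and exists in 2 forms, the ubiquitous Atp6v0d1 and Atp6v0d2, which is best known from osteoclasts and macrophages. Atp6v0d2 (chr4:19876841-19922605, minus strand) measured 17.2, 13.6, 18.6 and 13.2 FPKM across ctr_hEV 1 to 4, against 8.28, 13.9, 11.3 and 14 FPKM across RIC_hEV 1 to 4. Libraries ctr_hEV 1 and ctr_hEV 3 were highest and RIC_hEV 1 lowest, and RIC_hEV 2 and RIC_hEV 4 exceeded ctr_hEV 2 and ctr_hEV 4. The fit gave a log2 change of -0.38 (SE 0.17, limma adjusted p = 0.356). It was -0.23 without RIC_hEV 1 and -0.19 without both ctr_hEV 1 and ctr_hEV 3. Atp6v0d1 (chr8:105524465-105566047, minus strand) measured 45.7, 36, 41.1 and 36.7 FPKM across ctr_hEV 1 to 4, against 44.9, 40.4, 39.3 and 42.4 FPKM across RIC_hEV 1 to 4. It was the only pump gene of the 6 that lay higher in RIC_hEV as fitted, with a log2 change of 0.07 (SE 0.11, limma adjusted p = 0.743), and its groups overlapped. That change was 0.14 without ctr_hEV 1 and 0.19 without both ctr_hEV 1 and ctr_hEV 3, while it was 0.02 without ctr_hEV 2, 0.03 without ctr_hEV 4 and 0.03 without RIC_hEV 1. Atp6v1h, the H subunit of V1, ranged from 5.15 to 8.19 FPKM, lowest in RIC_hEV 1, and the accessory subunit Atp6ap1 from 13.1 to 19.4 FPKM.

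The other genes of the pathway also gave no call. No gene in the pathway lists passed the adjusted threshold, and counts below are at an unadjusted p under 0.05, against 11.4% lower and 2.64% higher among all tested genes. Of 12 tested of 17 further pump subunits, 1 was lower and 0 higher. That gene was Atp6v1c1, the C subunit, at 11.8 ± 1.68 FPKM in ctr_hEV and 9.34 ± 1.06 FPKM in RIC_hEV (SD, n = 4 per group). Atp6v1g1 and Tcirg1, the next by p, were at 65.2 ± 10.2 FPKM in ctr_hEV and 53.4 ± 7.37 FPKM in RIC_hEV and at 14.9 ± 3.5 FPKM in ctr_hEV and 12.2 ± 1.33 FPKM in RIC_hEV. Of 45 tested of 48 further lysosomal enzymes and membrane proteins, 2 were lower and 0 higher. Gm2a, the activator of ganglioside breakdown, was at 31.1 ± 6.33 FPKM in ctr_hEV and 22.9 ± 1.23 FPKM in RIC_hEV, and the tetraspanin Cd63 at 42.9 ± 17.8 FPKM in ctr_hEV and 26.9 ± 5.07 FPKM in RIC_hEV. The acid phosphatase Acp2, next by p, was at 13.2 ± 1.61 FPKM in ctr_hEV and 11.1 ± 1.09 FPKM in RIC_hEV.

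Delivery and control genes were counted in the same way. Of 20 sorting genes, 1 was lower and 1 higher. M6pr, the cation-dependent mannose 6-phosphate receptor that carries hydrolases to lysosomes, measured 27.2, 21.8, 22.2 and 19.6 FPKM across ctr_hEV 1 to 4, against 16.4, 18.2, 18.9 and 19.5 FPKM across RIC_hEV 1 to 4, with all RIC_hEV libraries lower and a log2 change of -0.29 (SE 0.12, limma adjusted p = 0.354). Cln8, which helps hydrolases leave the endoplasmic reticulum, was at 10.4 ± 1.23 FPKM in ctr_hEV and 12.6 ± 1.06 FPKM in RIC_hEV, without overlap, and the retromer subunit Vps35 at 14.8 ± 1.34 FPKM in ctr_hEV and 12.4 ± 1.53 FPKM in RIC_hEV. Of 21 tested of 22 TFEB relatives and mTORC1 genes, 3 were lower and 0 higher. Flcn (folliculin), which regulates the Rag GTPases, measured 11.3, 11.9, 12.6 and 8.73 FPKM across ctr_hEV 1 to 4, against 7.92, 10.9, 4.9 and 5.62 FPKM across RIC_hEV 1 to 4, where RIC_hEV 2 lay inside the control range. Its partner Fnip1 was at 11.5 ± 2.11 FPKM in ctr_hEV and 8.93 ± 0.817 FPKM in RIC_hEV, and the GTPase Rragd at 5.17 ± 2.84 FPKM in ctr_hEV and 2.47 ± 0.766 FPKM in RIC_hEV, with ctr_hEV 1 and ctr_hEV 3 at 7.79 and 7.46 FPKM and the other 6 libraries no higher than 3.61.

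Inhibitors and autophagy genes completed the lists. Of 4 cystatins, which inhibit cysteine cathepsins, 2 were tested and neither had an unadjusted p under 0.05, with Cstb at 201 ± 48.5 FPKM in ctr_hEV and 150.0 ± 29.3 FPKM in RIC_hEV and Cst3 at 144 ± 22.9 FPKM in ctr_hEV and 133 ± 21.9 FPKM in RIC_hEV. Of 19 tested of 20 autophagy genes, 1 was lower and 2 higher. Gabarapl1, a protein of the autophagosome membrane, measured 132, 137, 132 and 154 FPKM across ctr_hEV 1 to 4, against 178, 166, 164 and 159 FPKM across RIC_hEV 1 to 4, so the RIC_hEV libraries were all above the controls, with a log2 change of 0.27 (SE 0.10, limma adjusted p = 0.354). Map1lc3a, of the same family, was at 27 ± 2.56 FPKM in ctr_hEV and 32.6 ± 2.79 FPKM in RIC_hEV. The cargo receptor Sqstm1 (p62) went the other way, at 245 ± 41.4 FPKM in ctr_hEV and 193 ± 9.64 FPKM in RIC_hEV, with a log2 change of -0.33 (SE 0.13, limma adjusted p = 0.354).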

How the data were processed

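Liver RNA was isolated by the Trizol method for 8 sequencing libraries (VAHTS universal kit), per the labels' protocols. Software listed, without roles, in the submitters' processing notes was HISAT2 2.2.1, HTSeq 0.13.5, DESeq2 1.18.1, R 3.4.1, Trimmomatic 0.38 and FastQC 0.11.9, with build mm10. The deposited values are FPKM, 1 column per library; no source used here states the program, gene lengths, annotation or strand setting behind them. Of 55335 rows, 3225 without a gene name (0.176% to 0.207% of FPKM) were left out, and of 80 repeated symbols the row with the higher mean was kept. Depth was estimated from FPKM times exon length (GENCODE M21) of low genes; 13.4% to 17% of values under 20 steps were whole to within 0.02, and no count model was used. Precision is limited by 4 libraries per group.

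Values were tested as log2(FPKM + 1), which understates changes of low genes, for the 11268 genes whose mean FPKM reached 1, in limma 3.58.1 (R 4.3.3), two-sided with a mean-variance trend and Benjamini-Hochberg adjustment at 0.05. The fit was checked on simulated data whose planted changes were larger than those of the 41 genes and whose noise was independent between genes. That check does not cover small changes or noise shared between genes. Coordinates and exon overlaps are from GENCODE M21 (GRCm38, mm10). Overlaps not given with the gene were 5.49% for Glb1, 5.31% for Npc1 and at most 1.96% for Grn, Atp6v1h and Ctsz. Groups and replicates came from sample titles. The 41 genes and the lists were chosen with earlier results of these data known. Per-library values are given for genes with an unadjusted p under 0.05 or no overlap, filled to 12 by p, for the 5 most abundant, both d subunits and Tfeb; from other lists the 3 genes of smallest p, and the 2 most abundant markers. Values of Gaa and by-library values of Idua, Lyz2, M6pr, Flcn and Gabarapl1 were added after they were seen. Alternatives were another pseudocount (0.1), filter (none, 5), scaling, library weights, a replicate block and leaving out libraries.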

Additional observations from a re-analysis of the deposited data

Results flagged for a closer look

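In 82 groups of 4 libraries (41 genes, both vesicle groups), 3 held a library whose gap to the next took up more of the group's range than Dixon's 95% critical value. Chance gives about 1 in 20 groups. Idua in RIC_hEV 4 was at 2.79 FPKM, where the other RIC_hEV libraries lay between 1.22 and 1.28 FPKM. Galns in ctr_hEV 1 was at 7.93 FPKM, where the other ctr_hEV libraries lay between 4.45 and 4.61 FPKM. Psap in RIC_hEV 4 was at 602 FPKM, where the other RIC_hEV libraries lay between 489 and 495 FPKM.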

How the results depend on the processing

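No lysosomal gene passed an adjusted p of 0.05 under any of the 17 alternatives, and the lowest adjusted p was 0.0657 (Neu1, library weights), against 0.352 as reported. The 6 genes at an unadjusted p under 0.05, all lower, were 15 with library weights (25.8% of all tested genes lower), 2 with median centring (0 lower, 2 higher), 0 without ctr_hEV 1 and ctr_hEV 3 and 1 to 13 with 1 library left out; with quantile normalization 1 was higher (5.37%). The groups did not overlap in 5 genes with median centring (2 lower and 3 higher, against 2% and 4.24% of all tested genes), in 1 higher gene with quantile normalization (2.57%), in 8 without ctr_hEV 1 and ctr_hEV 3 (4 lower and 4 higher, against 8.01% and 5.99%) and in 3 to 9 with 1 library left out. The median log2 change of the 41 genes, -0.16 as reported, lay between -0.22 and -0.01. It was -0.03 with median centring and -0.01 without ctr_hEV 1 and ctr_hEV 3. These moves were under the spread between libraries of a group (SD 0.16). That spread is about as large as the change itself, so the change is not shown to be stable. Whether the replicate numbers pair the samples is not stated in the labels. Correlations of same-numbered libraries (0.05, 0.12, -0.01 and -0.23) cannot decide it, since those of differently numbered libraries ran from -0.152 to 0.192. With a replicate block 1 gene (Ppt1) had an unadjusted p under 0.05 in limma (9.92% of all tested genes) and the lowest adjusted p was 0.493. Of the 17 genes that the naming rule gives by library, 5 changed sign under at least 1 alternative. Without ctr_hEV 1 and ctr_hEV 3 the log2 changes were 0.0907 for Ctsk, 0.22 for Psap, 0.0611 for Ctsd and 0.0671 for Tfeb. With median centring they were 0.0308 for Lamp1 and 0.12 for Tfeb, and with quantile normalization 0.10 for Tfeb. With 1 library left out, Psap ranged from -0.286 to 0.0226 (0.0226 without ctr_hEV 1) and Tfeb from -0.0811 to 0.0305. The cause was not tested.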

Other observations

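The balance between both d subunit forms of the proton pump was looked at after their values were seen. The level of Atp6v0d1 divided by that of Atp6v0d2 was 2.66, 2.66, 2.21 and 2.78 in ctr_hEV 1 to 4 and 5.43, 2.90, 3.47 and 3.03 in RIC_hEV 1 to 4, so every RIC_hEV library lay above every ctr_hEV library. No test was made, since the ratio was picked from these data. The level of Ctss divided by that of Ctsl was 2.64, 2.26, 2.50 and 1.79 in ctr_hEV 1 to 4 and 1.46, 1.96, 2.12 and 2.41 in RIC_hEV 1 to 4, and the groups overlapped.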
